A study of Mus musculus with 16 samples.

Results

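The mitochondrial ribosomal proteins described here were the genes of the matrix whose names read Mrpl or Mrps followed by a number and at most 1 letter. There were 78 of them among 17883 genes, 49 named Mrpl and 29 named Mrps. The study asked what the m6A methyltransferase METTL3 does when white fat turns beige in the cold, and profiled mouse adipose tissue by input RNA sequencing, by sequencing of RNA captured with an antibody to m6A, and by sequencing of ribosome footprints. There were 16 libraries in 8 groups of 2. The libraries labelled cKO cold came from mice with floxed Mettl3 alleles (METTL3 flox/flox) and 1 copy of Adipoq-Cre, a recombinase expressed in adipocytes, kept singly at 4 °C for 7 days. WT cold libraries came from METTL3 flox/flox mice without Cre under the same cold, and WT RT libraries from untreated METTL3 flox/flox mice. All groups were C57BL/6 and 8 weeks old, and all carried the floxed allele; input and m6A libraries were made for the 3 conditions and footprints for both cold conditions only. Cre in this line acts in adipocytes, so other cells of the tissue keep Mettl3. The labels do not say that the 2 libraries of a group came from separate animals, so p-values measure the spread between these libraries, which may be technical.

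Mitochondria carry their own ribosomes, which translate the few mRNAs encoded by mitochondrial DNA into core subunits of the respiratory chain and ATP synthase. The RNAs of the mitochondrial ribosome come from mitochondrial DNA, but all its proteins are encoded in the nucleus, made in the cytosol and imported. Brown and beige adipocytes are rich in mitochondria. Some of the proteins have homologues in bacterial ribosomes and others are found only in mitochondria. By protein structure, 51 of the 78 genes encode proteins of the large subunit and 26 of the small subunit; Mrps18a and Mrps30, despite their names, belong to the large one. Mrps36 was named as a small-subunit protein and was later found to be a component of the 2-oxoglutarate dehydrogenase complex of the citric acid cycle. Of the other genes, 45 were classed as homologues of bacterial proteins and 32 as mitochondrial-specific. Mrps18c was put in the first class and Mrps18a and Mrps18b in the second, though their names are alike.

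Promoters are shown for 7 genes called in the comparisons below, to set those with opposite changes side by side. They come from the RefSeq table (GRCm38.p6), which held 69 of the 78; each runs from 250 bases before to 50 bases after the annotated start, 5′ to 3′ on the gene's strand. Capitals mark 3 short motifs found on either strand: the ETS motif CCGGAAG, the YY1 motif AAGATGGC and the NRF1 core GCATGCGC. NRF1, GABPA of the ETS family and YY1 are transcription factors long studied at nuclear genes for mitochondrial proteins.
Mrps36 (chr13:100744610-100744909, minus strand): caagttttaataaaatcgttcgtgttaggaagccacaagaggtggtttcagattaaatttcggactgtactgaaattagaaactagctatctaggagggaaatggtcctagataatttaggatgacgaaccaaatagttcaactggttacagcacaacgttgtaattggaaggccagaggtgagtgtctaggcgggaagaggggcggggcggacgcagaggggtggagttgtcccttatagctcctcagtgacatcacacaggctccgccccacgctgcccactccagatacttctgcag
Mrpl42 (chr10:95501900-95502199, minus strand): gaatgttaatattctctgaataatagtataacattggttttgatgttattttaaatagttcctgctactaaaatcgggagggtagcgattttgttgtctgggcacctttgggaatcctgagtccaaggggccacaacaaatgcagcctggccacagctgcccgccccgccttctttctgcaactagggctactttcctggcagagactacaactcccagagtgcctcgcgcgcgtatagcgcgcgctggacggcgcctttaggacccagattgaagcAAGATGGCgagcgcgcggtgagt
Mrps6 (chr16:92058086-92058385, plus strand): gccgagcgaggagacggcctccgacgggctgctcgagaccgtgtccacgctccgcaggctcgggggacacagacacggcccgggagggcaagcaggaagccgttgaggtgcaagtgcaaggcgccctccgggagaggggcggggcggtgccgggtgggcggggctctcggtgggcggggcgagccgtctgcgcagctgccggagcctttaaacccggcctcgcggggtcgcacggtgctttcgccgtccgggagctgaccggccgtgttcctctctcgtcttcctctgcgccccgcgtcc
Mrpl43 (chr19:45006393-45006692, minus strand): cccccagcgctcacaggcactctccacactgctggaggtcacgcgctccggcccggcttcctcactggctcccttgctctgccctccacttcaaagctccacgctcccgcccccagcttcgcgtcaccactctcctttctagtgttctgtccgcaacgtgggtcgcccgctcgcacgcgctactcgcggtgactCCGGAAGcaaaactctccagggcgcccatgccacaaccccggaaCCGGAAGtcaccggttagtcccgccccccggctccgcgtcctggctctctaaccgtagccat
Mrps7 (chr11:115603890-115604189, plus strand): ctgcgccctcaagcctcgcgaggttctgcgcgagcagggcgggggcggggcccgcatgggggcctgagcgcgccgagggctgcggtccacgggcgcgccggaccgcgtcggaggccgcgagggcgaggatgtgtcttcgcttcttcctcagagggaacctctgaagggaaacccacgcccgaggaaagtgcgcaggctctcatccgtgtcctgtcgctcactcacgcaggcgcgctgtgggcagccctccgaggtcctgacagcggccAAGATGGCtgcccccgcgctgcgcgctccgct
Mrpl51 (chr6:125191950-125192249, plus strand): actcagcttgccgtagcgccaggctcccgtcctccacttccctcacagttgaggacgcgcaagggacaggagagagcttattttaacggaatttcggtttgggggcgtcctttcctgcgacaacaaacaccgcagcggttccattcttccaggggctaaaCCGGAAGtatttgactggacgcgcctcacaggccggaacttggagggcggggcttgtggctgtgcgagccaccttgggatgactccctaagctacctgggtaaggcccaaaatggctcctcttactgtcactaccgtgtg
Mrpl49 (chr19:6057706-6058005, minus strand): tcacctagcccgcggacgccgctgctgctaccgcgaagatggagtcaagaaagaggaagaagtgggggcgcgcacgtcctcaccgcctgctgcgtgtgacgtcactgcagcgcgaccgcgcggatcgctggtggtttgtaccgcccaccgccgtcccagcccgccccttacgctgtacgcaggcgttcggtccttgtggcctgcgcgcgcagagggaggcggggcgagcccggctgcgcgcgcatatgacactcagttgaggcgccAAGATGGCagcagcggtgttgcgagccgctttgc
The ETS letters were in 25 of the 69 promoters (36.2%), against 17.8% of the 9979 promoters of other genes in the input RNA fit and 9.12% of all 27025 promoters in the table. The YY1 letters were in 12 promoters (17.4%), against 4.5% of the other genes of the fit and 2.88% of all. The NRF1 core was in 8 (11.6%), against 5.31% and 2.8%. An ETS and a YY1 match can share 3 letters, which occurred in 0 of the 69. At least 1 of the 3 motifs stood in 37 promoters (53.6%), against 25.3% of the other genes of the fit. The ERR motif TCAAGGTCA, bound by the oestrogen-related receptors, was in 0 of the 69 and in 0.407% of all promoters. Among the 7 printed promoters, Mrpl42, Mrps7 and Mrpl49 held the YY1 letters near the start, Mrpl51 held 1 and Mrpl43 held 2 ETS matches, and Mrps36 and Mrps6 held none of the 3. In 25 of the 69 (36.2%), another gene started on the opposite strand within 1000 bases upstream, against 16.2% of the other genes of the fit. Mrpl46 and Mrps11 form such a pair with each other, 42 bases apart; Mrps7 is paired with Gga3 and Mrpl49 with Fau, a cytosolic ribosomal protein gene.

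Values are RPKM, reads scaled to gene length and to library size, as deposited. Recovered reads came to between 3895031 and 8673393 in input libraries, 4883129 and 6426541 in m6A libraries, and at least 1676208 to 2461267 in footprint libraries; a single one of the 78 genes had 8 to 1140 reads in an input or m6A library and 2 to 666 in a footprint library. Mettl3 itself, the targeted gene, had 3.83 and 1.90 RPKM in labelled cKO cold input, 5.24 and 3.66 in WT cold input, and 10.8 and 9.27 in WT RT input. Its cKO difference did not pass the test (log2 −0.53 ± 0.30, limma adjusted p = 0.215). Mettl3 footprints were 8.99 and 5.22 RPKM in the libraries labelled cKO, against 4.60 and 4.82 in WT cold, which goes against the label; the deleted exons are not given in the sources used here, and gene-level reads can lie outside them. All 6 adipocyte markers were detected in every library, with summed levels of 8077 to 11400 RPKM in input. Other markers moved with the groups. The 6 T and B cell markers summed to 3.82 and 3.28 RPKM in labelled cKO cold input (2 and 3 of them at 0), 0.658 and 0.0730 in WT cold input (2 and 5 at 0), 573 and 536 in WT RT input (none at 0), and 245 to 746 in the footprint libraries (none at 0). The 6 macrophage markers summed to 521 and 310 RPKM in labelled cKO cold input, 62.4 and 66.4 in WT cold input and 201 and 205 in WT RT input. The 5 skeletal muscle markers summed to 119 RPKM in labelled cKO cold input replicate 2 and 216 in WT RT input replicate 1, against 1.99 to 6.64 in the other 4 inputs. The codes of the WT RT libraries also belong to a different run of names from those of the cold libraries, so temperature and code cannot be told apart. In whole tissue, fewer cells of a type and less RNA per cell cannot be told apart.

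All 78 genes passed the filter of at least 1 RPKM in 2 libraries in every fit. Their mean over the 6 input libraries ranged from 3.19 RPKM for Mrpl19 to 64.7 RPKM for Mrpl42, with a median of 16.7. After Mrpl42 the most abundant were Mrpl12, which forms the stalk of the large subunit that recruits translation factors (61.6 RPKM), Mrpl20 (45.4 RPKM), Mrpl30 (44.6 RPKM) and Mrps6 (44.0 RPKM). The summed level of the 78 genes was 1536 and 1874 RPKM in labelled cKO cold input, 1628 and 1410 in WT cold input, and 1166 and 1195 in WT RT input. Both cold conditions lay above WT RT and overlapped each other. In m6A libraries the sum was 1045 and 1243 RPKM in labelled cKO cold, 1404 and 1317 in WT cold, and 1041 and 1056 in WT RT. In footprints it was 6721 and 8000 RPKM in the libraries labelled cKO, against 6712 and 6528 in WT cold.

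**Figure D1:**
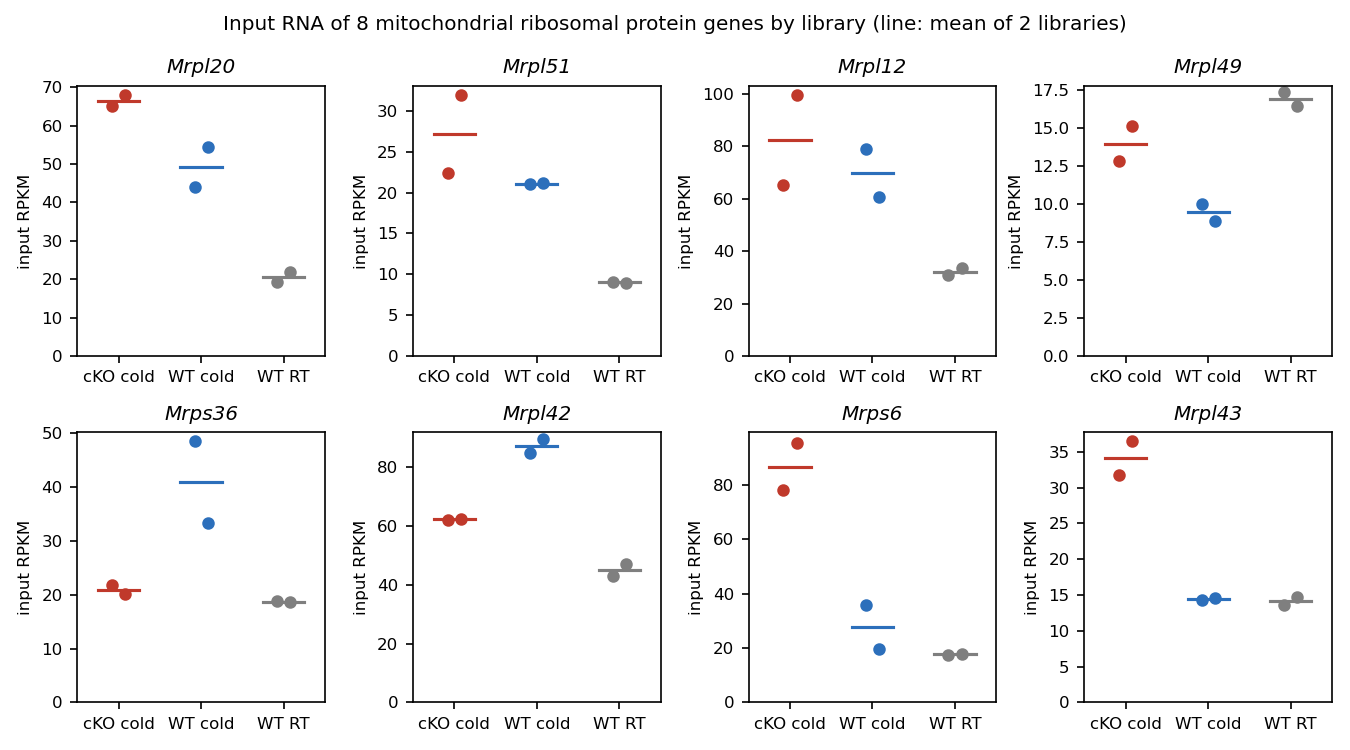
RPKM in each input library (points) with the mean of the 2 libraries (line) for 8 genes, by condition (x axis). Mrpl20, Mrpl51 and Mrpl12 were high in both cold conditions, Mrps36 and Mrpl42 were highest in WT cold, and Mrps6 and Mrpl43 were highest in the libraries labelled cKO.

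The first comparison was cold against room temperature in WT input RNA. In the cold, 14 of the 78 genes rose and 4 fell, where over all 12667 genes tested 6.52% rose and 51.2% fell (limma on log2(RPKM + 1), Benjamini-Hochberg adjusted p under 0.05). The median log2 difference of the 78 was 0.19, with quartiles of −0.11 and 0.52, against −0.67 over all genes, and 53 of the 78 lay above 0. With median-ratio scaling, which sets the median of all genes near 0 (−0.05), 57 rose and 0 fell, against 19.1% and 20.2% of all genes. The T and B cell, macrophage and library code differences above run along this comparison, and their part in it was not tested.

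Among large-subunit genes, Mrpl20, a homologue of a bacterial protein that binds ribosomal RNA, was at 44.1 and 54.4 RPKM in WT cold and 19.3 and 21.7 RPKM in WT RT. The 2 groups did not overlap, and the log2 difference was 1.22 ± 0.15 (SE, limma adjusted p = 0.000823). Mrpl51, a mitochondrial-specific protein, was at 21.1 and 21.2 RPKM in WT cold against 9.08 and 8.99 RPKM in WT RT (log2 1.14 ± 0.19, limma adjusted p = 0.00269). Mrpl12, whose product also binds mitochondrial RNA polymerase, was at 79.2 and 60.7 RPKM in WT cold against 31.0 and 33.5 RPKM in WT RT (log2 1.08 ± 0.22, limma adjusted p = 0.0065). In each of these genes both cold libraries stood above both WT RT libraries.
Mrpl42, mitochondrial-specific and the most abundant of all, had 84.6 and 89.3 RPKM in WT cold and 43.0 and 46.9 RPKM in WT RT (log2 0.94 ± 0.12, limma adjusted p = 0.000903). Mrpl50 had 20.8 and 16.9 RPKM in WT cold and 8.98 and 8.63 RPKM in WT RT (log2 1.01 ± 0.20, limma adjusted p = 0.00554). Mrps36, the 2-oxoglutarate dehydrogenase component, had 48.7 and 33.3 RPKM in WT cold and 18.8 and 18.7 RPKM in WT RT (log2 1.06 ± 0.19, limma adjusted p = 0.00387). These 6 calls held under every alternative tried. The other genes that rose were Mrpl30, Mrpl41, Mrpl47, Mrpl53, Mrps2, Mrps10, Mrps18b and Mrps33, by log2 0.54 to 0.91; each of these 8 lost its call in at least 1 alternative.

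The genes that fell in the cold were fewer and turned on the scaling. Mrpl49 was at 10.0 and 8.91 RPKM in WT cold and 17.3 and 16.5 RPKM in WT RT (log2 −0.78 ± 0.16, limma adjusted p = 0.00671). Mrpl52 had log2 −0.76 ± 0.23, Mrps26 log2 −0.63 ± 0.22 and Mrpl24 log2 −0.54 ± 0.14 (limma adjusted p = 0.0271, 0.0438 and 0.0136). The groups did not overlap for any of the 4. With median-ratio scaling Mrpl49 had log2 −0.08 and Mrpl24 turned to log2 0.17, and none of the 4 passed (limma adjusted p = 0.362 to 0.914). Among the genes chosen for their roles, none of the following passed: Mrpl3 (log2 0.29 ± 0.19), at the peptidyl transferase centre; Mrps12 (log2 −0.18 ± 0.37) and Mrps5 (log2 −0.05 ± 0.20), homologues of bacterial proteins of decoding accuracy; Mrpl44 (log2 0.14 ± 0.19), related to ribonuclease III; Mrps34 (log2 0.07 ± 0.34); Mrps30 (log2 0.20 ± 0.25); Mrps18a (log2 −0.13 ± 0.16); and Mrps18c (log2 −0.23 ± 0.18). Their limma adjusted p ran from 0.226 for Mrpl3 to 0.865 for Mrps34. With median-ratio scaling Mrps5 and Mrps18a turned to log2 0.59 each and passed (limma adjusted p = 0.039 and 0.0171). Mrpl3, Mrpl44 and Mrps30 also passed under that scaling, at log2 0.96, 0.83 and 0.87 (limma adjusted p = 0.00512, 0.0109 and 0.0263). Mrps12, Mrps34 and Mrps18c did not.

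Rises were spread over both subunits. Of 26 small-subunit genes 4 rose and 1 fell (median log2 0.22), and of 51 large-subunit genes 9 rose and 3 fell (median log2 0.14). Of the 45 homologues of bacterial proteins 6 rose and 1 fell, and of the 32 mitochondrial-specific genes 7 rose and 3 fell. Over all genes tested 6.52% rose and 51.2% fell. No test was made between these classes.

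**Figure D2:**
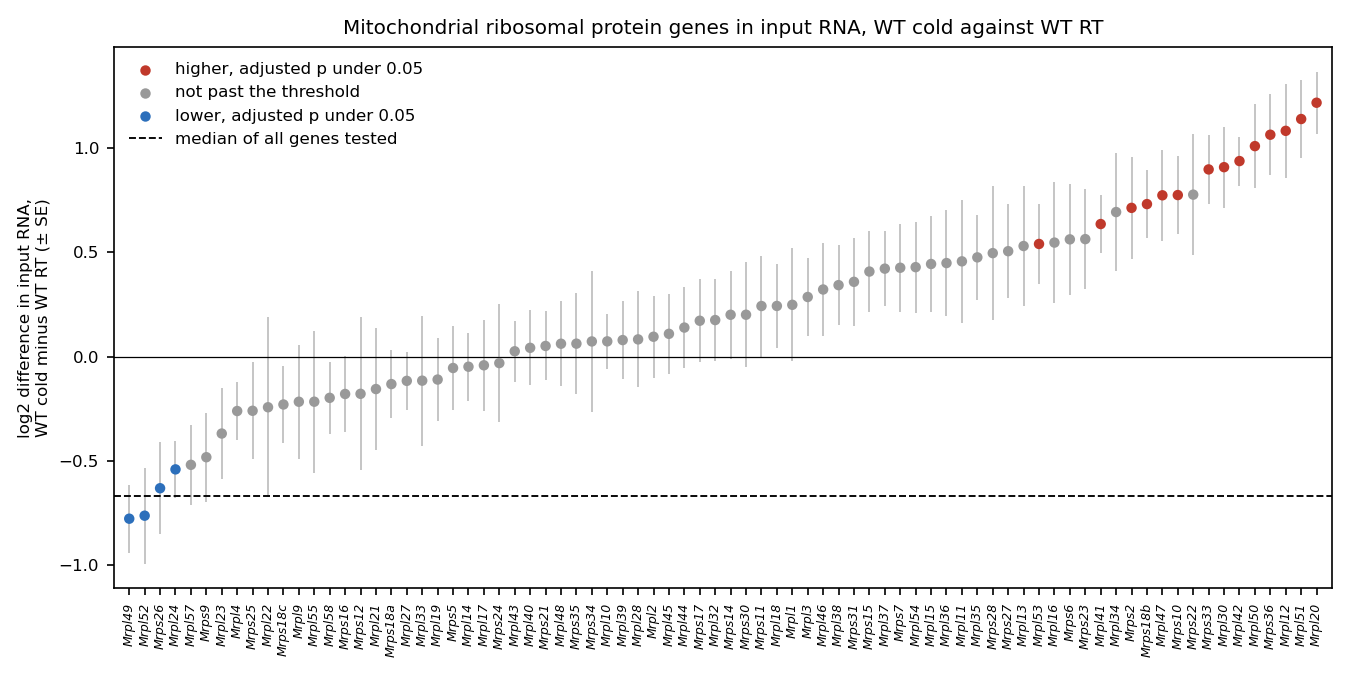
Log2 difference in input RNA (y axis, with SE), WT cold minus WT RT, for each of the 78 genes in order of the difference (x axis). The 14 genes that rose and the 4 that fell are coloured, and most genes lie above the median of all genes tested (dashed, −0.67).

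Other genes of mitochondrial translation give the setting. Of 6 further genes listed with the mitochondrial ribosome under other names, 1 rose. It was Ptcd3, of a small-subunit protein (log2 1.03 ± 0.17, limma adjusted p = 0.00292). The others were Dap3, Gadd45gip1, Chchd1, Aurkaip1 and Oxa1l. Of 14 mitochondrial translation factors 3 rose and 2 fell, with Gfm1, a mitochondrial elongation factor, at log2 1.24 ± 0.16 (limma adjusted p = 0.000906). Of 23 assembly factors 0 rose and 7 fell, against 6.52% and 51.2% of all genes. Among the 7 was Mettl17, which acts on the small subunit (log2 −1.39 ± 0.27, limma adjusted p = 0.00495). With median-ratio scaling 4 of the 23 rose and 0 fell, against 19.1% and 20.2% of all genes. All 10 mRNAs encoded by mitochondrial DNA that were tested rose, with a median log2 difference of 1.25. Of 75 nuclear-encoded oxidative phosphorylation subunits 62 rose and 3 fell (median log2 0.90). Of 78 cytosolic ribosomal proteins 0 rose and 76 fell (median log2 −1.63). The median of the mitochondrial ribosomal proteins thus lay between those of the cytosolic ribosome and the respiratory chain. With median-ratio scaling, which shifted every list upward, the order of these medians was the same: −0.91 for the cytosolic ribosome, 0.84 for the mitochondrial ribosomal proteins, 1.65 for the nuclear-encoded subunits and 2.0 for the mitochondrial mRNAs.

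**Figure D3:**
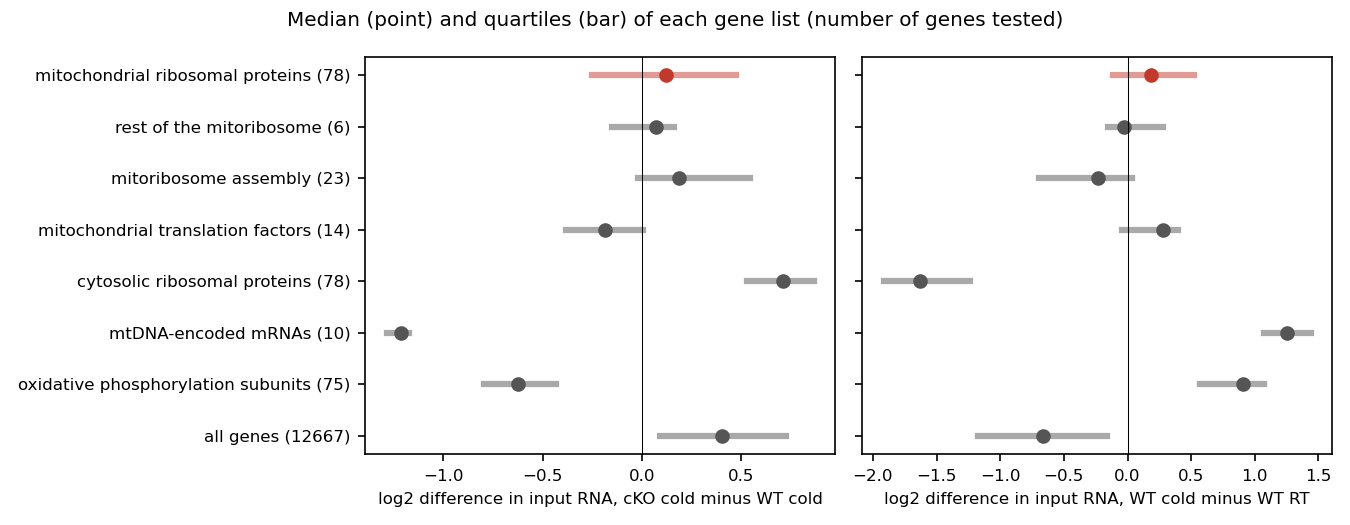
Median (point) and quartiles (bar) of the log2 difference in input RNA for each gene list, with the labelled cKO cold minus WT cold comparison on the left and WT cold minus WT RT on the right; the number of genes tested is beside each name. The mitochondrial ribosomal proteins lie near 0 in both panels (medians 0.12 and 0.19), while the mitochondrial mRNAs lie at −1.21 and 1.25.

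The second comparison set the libraries labelled cKO against WT in the cold. It shares the WT cold libraries with the first, so that values of the 2 comparisons are not independent. In the libraries labelled cKO 9 of the 78 genes rose and 3 fell, against 23.6% and 2.92% of all 12667 genes (limma, adjusted p under 0.05). The median log2 difference of the 78 was 0.12, with quartiles of −0.25 and 0.47, against 0.40 over all genes. With median-ratio scaling, under which the median of all genes was 0.01, 2 rose and 15 fell, against 6.09% and 6.95% of all genes, and the median of the 78 was −0.31. The direction of the list as a whole therefore turned with the scaling, and it was below the median of all genes under both. The beige and brown adipocyte markers summed to 178 and 146 RPKM in the libraries labelled cKO and 1605 and 1291 RPKM in WT cold, none of the 6 at 0, and the fibroblast and preadipocyte markers to 1346 and 624 RPKM against 331 and 286 RPKM. These lists and the macrophage markers moved with the comparison, and their part in it was not tested.

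Mrps36 fell furthest, at 21.8 and 20.1 RPKM in the libraries labelled cKO and 48.7 and 33.3 RPKM in WT cold (log2 −0.91 ± 0.19, limma adjusted p = 0.0186). Its libraries did not overlap, and the levels labelled cKO were close to the 18.8 and 18.7 RPKM of WT RT. The call was lost when either library labelled cKO was left out (largest limma adjusted p = 0.0627).
Ogdh and Dlst, of the enzyme complex that MRPS36 is a component of, gave like values and were chosen after these were seen. Other genes of the complex are not given here. Most nuclear-encoded oxidative phosphorylation subunits also rose in the cold and fell under the cKO label (counts above and below). Ogdh, the catalytic subunit, was at 131 and 136 RPKM in the libraries labelled cKO, 317 and 311 RPKM in WT cold, and 132 and 138 RPKM in WT RT. Dlst, the succinyltransferase of the complex, was at 81.9 and 81.3 RPKM labelled cKO, 192 and 181 RPKM in WT cold, and 71.2 and 75.3 RPKM in WT RT. In the libraries labelled cKO Ogdh fell by log2 1.23 ± 0.11 and Dlst by log2 1.18 ± 0.11 (limma adjusted p = 0.00369 for both).

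Mrpl42 had 61.9 and 62.4 RPKM in the libraries labelled cKO and 84.6 and 89.3 RPKM in WT cold (log2 −0.48 ± 0.12, limma adjusted p = 0.0284). The libraries labelled cKO stood between those of WT cold and WT RT, with no overlap on either side. Mrpl39, a mitochondrial-specific protein of the large subunit, had 7.44 and 9.51 RPKM labelled cKO against 14.7 and 12.4 RPKM in WT cold (log2 −0.63 ± 0.19, limma adjusted p = 0.0477).
The 3 genes with the largest cold difference in WT were not called in this comparison. Mrpl20 was at 65.0 and 67.9 RPKM labelled cKO, above both WT cold libraries (log2 0.43 ± 0.15, limma adjusted p = 0.0714). Mrpl51 was at 22.4 and 31.9 RPKM (log2 0.33 ± 0.19, limma adjusted p = 0.222) and Mrpl12 at 65.3 and 99.7 RPKM labelled cKO (log2 0.22 ± 0.22, limma adjusted p = 0.486). The Mrpl12 libraries of both genotypes overlapped.

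Mrps6, a homologue of a bacterial small-subunit protein, rose furthest, at 78.1 and 95.3 RPKM in the libraries labelled cKO and 35.7 and 19.6 RPKM in WT cold (log2 1.66 ± 0.27, limma adjusted p = 0.00924). Both libraries labelled cKO stood above every WT input library. In the annotation Mrps6 (chromosome 16, bases 92058336 to 92112227) overlaps Slc5a3, the sodium and myo-inositol cotransporter gene, and reads of the 2 cannot be told apart where they share sequence. Slc5a3 was at 26.0 and 33.6 RPKM labelled cKO and 11.4 and 9.65 RPKM in WT cold (log2 1.41 ± 0.18, limma adjusted p = 0.00568).
Mrpl43, a mitochondrial-specific large-subunit protein, was at 31.7 and 36.5 RPKM in the libraries labelled cKO and 14.3 and 14.6 RPKM in WT cold (log2 1.18 ± 0.15, limma adjusted p = 0.00523). It overlaps Twnk, the gene of the mitochondrial DNA helicase, which was at 5.08 and 4.56 RPKM labelled cKO and 2.61 and 2.58 RPKM in WT cold (log2 0.70 ± 0.19, limma adjusted p = 0.0377). Mrps6 and Mrpl43 were the only 2 of the 12 calls that held under every alternative tried. In all, 20 of the 78 genes overlap another protein-coding gene and 4 have a pseudogene of the same name. Those 4 are Mrps36, with 3 such pseudogenes, and Mrpl23, Mrpl27 and Mrpl48, with 1 each. Among genes called in either input comparison, Mrpl24, Mrpl27, Mrpl49, Mrpl53, Mrpl57, Mrps2, Mrps7 and Mrps18a also overlap another gene.

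Mrps34, of the small subunit, had log2 1.15 ± 0.34; Mrpl46 log2 1.10 ± 0.22; Mrpl27, whose bacterial homologue reaches the peptidyl transferase centre, log2 0.97 ± 0.14; and Mrpl57 log2 0.88 ± 0.19 (limma adjusted p = 0.0466, 0.0164, 0.00741 and 0.0205). All 4 missed the threshold with median-ratio scaling (limma adjusted p = 0.0782 to 0.215). Mrpl23, Mrps7 and Mrps18a made up the 9. Of the remaining genes chosen for their roles, Mrpl3, Mrpl41, Mrpl44, Mrps5, Mrps12, Mrps18b, Mrps18c and Mrps30 did not pass, with log2 differences from −0.22 for Mrps18c to 0.53 for Mrps12.

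The other lists went their own ways in the same libraries. All 10 mitochondrial mRNAs tested fell (median log2 −1.21), and of 75 oxidative phosphorylation subunits 1 rose and 47 fell (median log2 −0.62). Of 78 cytosolic ribosomal proteins 62 rose and 0 fell (median log2 0.71), against 2 and 0 of 77 with median-ratio scaling. Of 23 assembly factors 3 rose and 1 fell, against 23.6% and 2.92% of all genes. Ddx28, a helicase of large-subunit assembly, was among those that rose (log2 1.15 ± 0.23, limma adjusted p = 0.0163). With median-ratio scaling 0 of the 23 rose and 1 fell, against 6.09% and 6.95% of all genes. Of 14 translation factors 0 rose and 1 fell, Gfm1 (log2 −0.52 ± 0.16, limma adjusted p = 0.048). Of the 6 further genes listed with the mitochondrial ribosome 0 passed.

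m6A libraries were next set against input within each condition, to see how much of each mRNA the antibody captured. More of the 78 genes were called lower than higher in m6A, in every condition. Relative to input, 4 were higher and 43 lower in m6A of the libraries labelled cKO, 8 higher and 28 lower in WT cold, and 9 higher and 39 lower in WT RT (limma, adjusted p under 0.05). Over all 13062 genes tested, 11.4% were higher and 35.2% lower in the libraries labelled cKO, 13.7% and 25.6% in WT cold, and 16% and 34.6% in WT RT. With libraries paired by number as a block, 4 were higher and 54 lower under the cKO label, against 16.1% and 42.2% of all genes, 13 and 38 in WT cold, against 19.4% and 31.9%, and 11 and 44 in WT RT, against 21.3% and 40.6%. With median-ratio scaling, 8 were higher and 23 lower under the cKO label, against 21.2% and 20.5% of all genes, 12 and 23 in WT cold, against 20.4% and 21.2%, and 13 and 19 in WT RT, against 24.1% and 23.0%. The median log2 difference of the 78 was −0.69, −0.34 and −0.55 in the same order, against −0.30, −0.11 and −0.25 over all genes. In all 3 conditions 22 genes (28.2%) were lower, against 22.0% of all genes, and 2 (2.56%) were higher, against 6.75%. RPKM is scaled to the size of each library, so a value above or below 0 compares a gene with the rest of its library. Such a value does not give the methylated share of its molecules.

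Mrpl54, a mitochondrial-specific large-subunit protein, was higher in m6A in every condition. It had 69.7 and 74.6 RPKM in m6A against 31.9 and 42.5 RPKM in input of the libraries labelled cKO, 52.6 and 67.2 RPKM against 24.0 and 34.9 RPKM in WT cold, and 64.2 and 75.6 RPKM against 22.0 and 20.6 RPKM in WT RT. No m6A library overlapped an input library of its condition, and the log2 differences were 0.95 ± 0.20, 1.01 ± 0.20 and 1.67 ± 0.20 (limma adjusted p = 0.00337, 0.00288 and 0.000111). The other gene higher throughout was Mrps26, a small-subunit gene, with log2 0.56 ± 0.17, 0.88 ± 0.17 and 0.72 ± 0.17 in the libraries labelled cKO, WT cold and WT RT (limma adjusted p = 0.0214, 0.00246 and 0.00578).
Mrpl12 and Mrpl41 were higher in m6A in both WT conditions. Mrpl12 had 75.8 and 92.7 RPKM in m6A against 65.3 and 99.7 RPKM in input of the libraries labelled cKO, 143 and 116 RPKM against 79.2 and 60.7 RPKM in WT cold, and 76.3 and 76.2 RPKM against 31.0 and 33.5 RPKM in WT RT. The libraries overlapped under the cKO label and nowhere else, with log2 0.05 ± 0.21, 0.88 ± 0.21 and 1.22 ± 0.21 in the 3 conditions (limma adjusted p = 0.854, 0.00709 and 0.000846). Mrpl41 had log2 0.06 ± 0.14, 0.90 ± 0.14 and 1.34 ± 0.14 in the same order (limma adjusted p = 0.746, 0.000657 and 4.5e-05).
Mrpl46 was at 12 and 11.8 RPKM in m6A against 17.8 and 19.7 RPKM in input of the libraries labelled cKO, 22.2 and 13.4 RPKM against 9.35 and 7.13 RPKM in WT cold, and 13.1 and 10.7 RPKM against 7.63 and 5.24 RPKM in WT RT. Its m6A libraries lay below input under the cKO label (log2 −0.61 ± 0.24, limma adjusted p = 0.0617, or 0.00388 with the paired libraries as a block) and above it in WT cold (log2 1.00 ± 0.24, limma adjusted p = 0.00822) and WT RT (log2 0.80 ± 0.24, limma adjusted p = 0.0187). Mrps2, a small-subunit gene, was the 1 gene called both ways, lower in m6A of the libraries labelled cKO (log2 −0.82 ± 0.23, limma adjusted p = 0.0157) and higher in WT RT (log2 0.76 ± 0.23, limma adjusted p = 0.0201). Its WT RT call was lost without any 1 of the 4 WT RT libraries (largest limma adjusted p = 0.1001), and its call under the cKO label with median-ratio scaling (limma adjusted p = 0.193) and without labelled cKO input replicate 2 or m6A replicate 1. With the block Mrpl43, Mrpl46 and Mrps7 were also called lower under the cKO label and higher in both WT conditions, as was Mrps2.

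At the low end, Mrpl30, a homologue of a bacterial large-subunit protein, had 12 and 19.8 RPKM in m6A against 38.2 and 49.0 RPKM in input of the libraries labelled cKO, 18.9 and 15.1 RPKM against 67.0 and 51.4 RPKM in WT cold, and 7.93 and 6.76 RPKM against 33.8 and 28.0 RPKM in WT RT. All its m6A libraries stood far below input, with log2 −1.43 ± 0.24, −1.74 ± 0.24 and −1.93 ± 0.24 (limma adjusted p = 0.000834, 0.000316 and 0.000123). Mrps18c was lowest in WT RT, at 2.46 and 3.53 RPKM in m6A against 15.6 and 16.7 RPKM in input (log2 −2.11 ± 0.23, limma adjusted p = 6.67e-05). Mrps6 was lowest in the libraries labelled cKO, at 21.0 and 24.3 RPKM in m6A against 78.1 and 95.3 RPKM in input (log2 −1.89 ± 0.26, limma adjusted p = 0.000249). Its m6A level under the cKO label was close to the 20.4 and 22.4 RPKM of WT cold m6A, while its input level was higher. Also lower in all 3 conditions were Mrpl3, Mrpl20, Mrpl35, Mrpl39, Mrps9, Mrps14, Mrps16, Mrps17 and Mrps24, among others.

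Homologues of bacterial proteins had lower medians than mitochondrial-specific genes in all 3 conditions, log2 −0.78 against −0.60 in the libraries labelled cKO, −0.49 against −0.07 in WT cold and −0.71 against −0.28 in WT RT. Of the 45 homologues 29, 21 and 27 were lower in m6A in that order of conditions, and of the 32 mitochondrial-specific genes 14, 7 and 11. Over all genes tested 35.2%, 25.6% and 34.6% were lower. The difference between these classes was not tested. With median-ratio scaling the mitochondrial-specific medians turned to log2 0.13 in WT cold and 0.02 in WT RT. Across the 78 genes, m6A over input and the transcript length implied by the deposited values had Spearman's rho of −0.223, −0.122 and −0.104 in the 3 conditions, against 0.108, 0.108 and 0.12 over 12729 genes, given as a description, since all 3 share the same lengths. The cytosolic ribosomal proteins had medians of −1.17, −1.05 and −1.74 and the oxidative phosphorylation subunits of −1.19, −0.91 and −1.10, all below those of the mitochondrial ribosomal proteins. With median-ratio scaling the medians of the 78 were −0.32, −0.15 and −0.25.

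**Figure D4:**
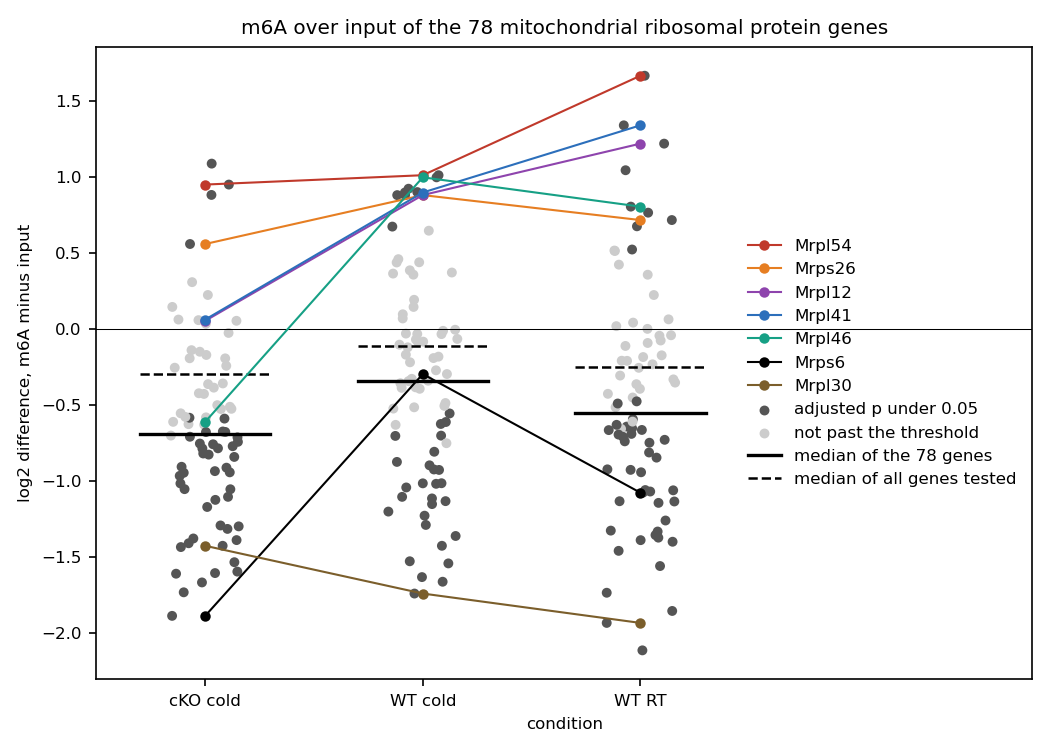
Log2 difference of m6A minus input (y axis) for the 78 genes in the 3 conditions (x axis), dark where the limma adjusted p is under 0.05, with the median of the 78 (solid) and of all genes tested (dashed). Lines join 7 named genes; Mrpl12, Mrpl41 and Mrpl46 lie near or below 0 under the cKO label and above 0 in both WT conditions.

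The change of m6A over input between conditions was tested as an interaction. Between the libraries labelled cKO and WT cold 0 of the 78 genes passed in limma, as did 0 of all 13062 genes (0%); 18 of the 78 had an unadjusted p under 0.05, against 10.0% of all genes. The largest differences were those of Mrpl46 (log2 −1.61 ± 0.34, limma adjusted p = 0.136), Mrps6 (log2 −1.59 ± 0.37, limma adjusted p = 0.153) and Mrpl34 (log2 −1.21 ± 0.40, limma adjusted p = 0.302) on the low side, and of Mrps28 (log2 0.73 ± 0.42), Mrpl36 (log2 0.59 ± 0.33) and Mrps14 (log2 0.58 ± 0.31) on the high side. Input and m6A libraries of 1 condition and number deviated together, and with that pairing as a block 9 of the 78 were lower in the libraries labelled cKO and 0 higher, against 3.04% and 0.0612% of all genes. The 9 were Mrpl10, Mrpl12, Mrpl27, Mrpl41, Mrpl43, Mrpl46, Mrps2, Mrps6 and Mrps7 (limma adjusted p = 0.00933 for Mrpl46 to 0.0396 for Mrpl41). Of these, Mrpl27, Mrpl43, Mrpl46, Mrps6 and Mrps7 were among the genes that rose in input RNA under the cKO label; the 2 tests share the input libraries.
Between WT cold and WT RT 0 of the 78 passed in limma, against 0.0230% higher and 0.0383% lower over all genes, and 9 had an unadjusted p under 0.05, against 11.4% of all genes; with the block 0 of the 78 passed, against 1.70% higher and 0.367% lower over all genes. Mrps18c differed most (log2 1.22 ± 0.33, limma adjusted p = 0.222), with 8.0 and 5.85 RPKM in m6A of WT cold and 2.46 and 3.53 RPKM in m6A of WT RT.

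Ribosome footprints, the fragments of mRNA covered by cytosolic ribosomes as they translate, were compared between the libraries labelled cKO and WT in the cold. Of the 78 genes 3 rose and 4 fell, against 5.61% and 1.54% of 12763 genes (limma, adjusted p under 0.05). The median log2 difference of the 78 was −0.01, with quartiles of −0.30 and 0.38, against 0.42 over all genes. The 3 that rose had also risen in input, and 2 of the 4 that fell had also fallen there, 5 genes in all, or 41.7% of the 12 called in input and 71.4% of the 7 called in footprints. Over all genes in both fits these shares were 19.7% of 3352 and 75.9% of 871. With median-ratio scaling 1 rose and 4 fell, against 0.783% and 2.51% of all genes, and the median of the 78 was −0.47.

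Mrps36 fell the most, with 42.1 and 75.5 RPKM in footprints labelled cKO and 207 and 209 RPKM in WT cold (log2 −1.86 ± 0.30, limma adjusted p = 0.0174). Mrpl42 had 55.1 and 58.6 RPKM labelled cKO against 144 and 160 RPKM in WT cold (log2 −1.40 ± 0.20, limma adjusted p = 0.0115). In both genes each library labelled cKO was below every WT cold library by a wide margin. Ogdh and Dlst fell by log2 1.39 ± 0.23 and 1.46 ± 0.23 in footprints (limma adjusted p = 0.0191 and 0.0155).
Mrps27, a small-subunit protein with pentatricopeptide repeats, had 16.6 and 21.0 RPKM labelled cKO against 55.9 and 35.4 RPKM in WT cold (log2 −1.21 ± 0.31, limma adjusted p = 0.0497). Mrpl47, a homologue of a bacterial large-subunit protein, had 17.0 and 15.5 RPKM labelled cKO against 36.0 and 34.7 RPKM in WT cold (log2 −1.07 ± 0.25, limma adjusted p = 0.0418). Neither was called in input, where Mrps27 had log2 −0.65 and Mrpl47 log2 −0.52. With median-ratio scaling both were called lower in input, at log2 −1.11 and −0.94 (limma adjusted p = 0.0182 and 0.0403). The groups did not overlap for either gene in footprints. Both footprint calls were lost without the filter, with a pseudocount of 0.1 and without any 1 library (largest limma adjusted p = 0.171 for Mrps27 and 0.132 for Mrpl47).
Mrps7, a homologue of a bacterial small-subunit protein, rose to 98.2 and 96.5 RPKM in the libraries labelled cKO, against 35.8 and 26.0 RPKM in WT cold (log2 1.64 ± 0.26, limma adjusted p = 0.0165). It overlaps Gga3 and Mif4gd in the annotation, neither of which passed (log2 0.99 ± 0.39 and 0.61 ± 0.27, limma adjusted p = 0.129 and 0.168). Mrps6 was at 509 and 434 RPKM labelled cKO and 161 and 145 RPKM in WT cold (log2 1.61 ± 0.29, limma adjusted p = 0.0241), and Slc5a3 at 42.9 and 58.9 RPKM against 21.9 and 16.3 RPKM. Mrpl43 was at 78.1 and 136 RPKM labelled cKO and 51.2 and 41.8 RPKM in WT cold (log2 1.14 ± 0.28, limma adjusted p = 0.0472); its call was lost in 11 alternatives, among them median-ratio scaling (limma adjusted p = 0.27) and each left-out library.
Without WT cold footprint replicate 2, or without labelled cKO footprint replicate 1, 0 of the 78 genes passed, and without WT cold footprint replicate 1 there were 6 calls, 4 higher and 2 lower. Footprint replicates also agreed less for these genes than input replicates, with a spread of 0.45 (labelled cKO) and 0.37 (WT cold) on the log2 scale, against 0.24 in both input groups. The fit shared its estimate of spread over input and footprint libraries, so SE and p-values of footprints can understate their spread.

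**Figure D5:**
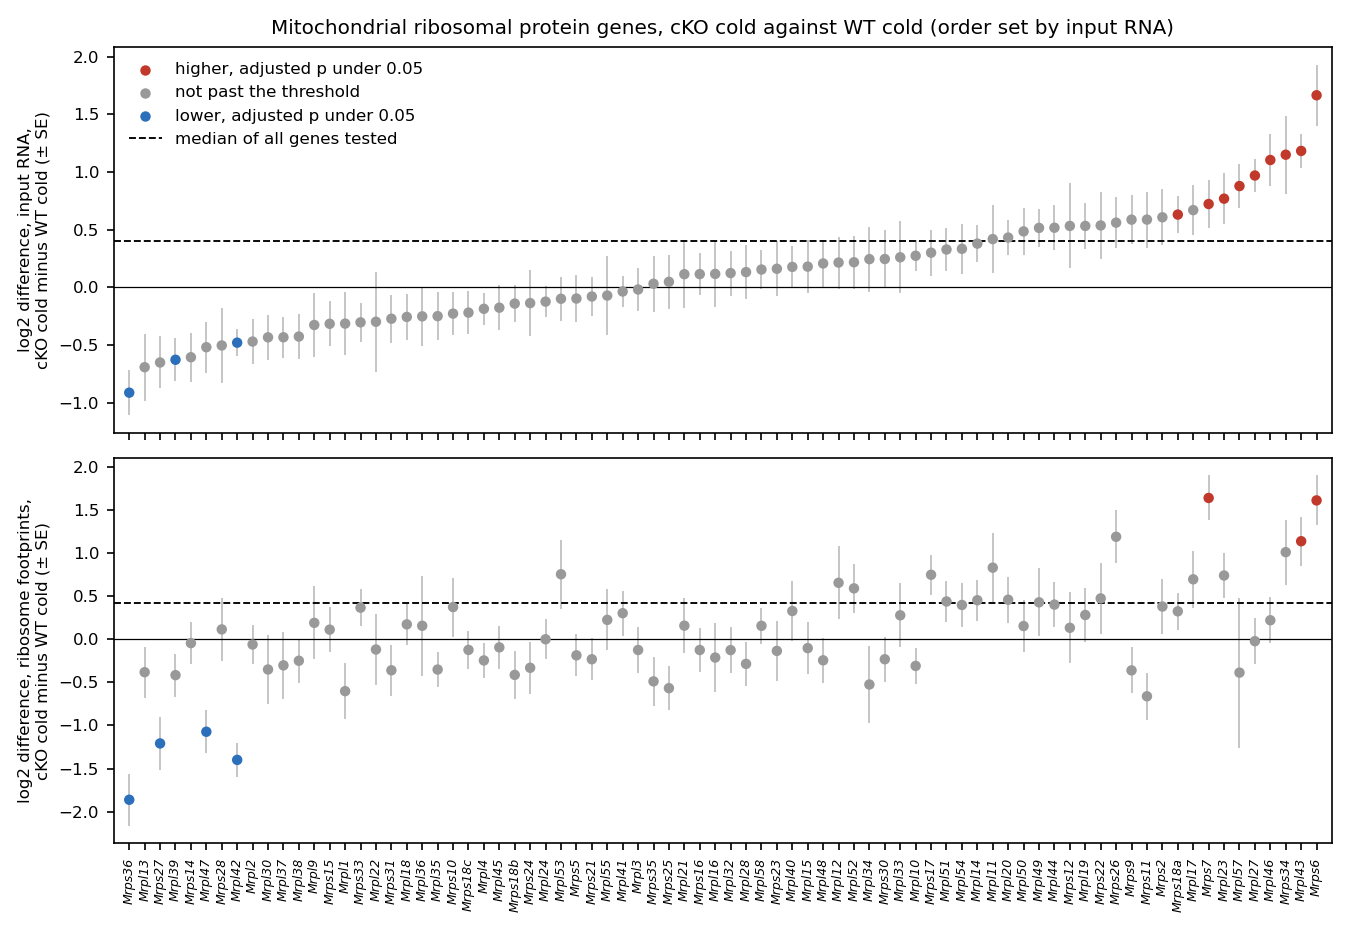
Log2 difference (y axis, with SE), labelled cKO cold minus WT cold, of the 78 genes in input RNA (upper panel) and in ribosome footprints (lower panel), both in the order of the input difference (x axis). Mrps36 is at the low end of both panels (−0.91 and −1.86) and Mrps6 at the high end of both (1.66 and 1.61); the dashed line is the median of all genes tested.

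The change of footprints over input between the genotypes was tested as an interaction, and 0 of the 78 genes passed in limma, as did 0 of all 12763 genes (0%); 6 of the 78 had an unadjusted p under 0.05, against 3.60% of all genes. The largest differences were log2 0.92 ± 0.37 for Mrps7, 0.85 ± 0.56 for Mrpl53 and 0.67 ± 0.31 for Mrps33, and −1.27 ± 1.23 for Mrpl57, −1.25 ± 0.39 for Mrps11 and −0.99 ± 0.38 for Mrpl27. Mrps36 and Mrpl42 had log2 −0.95 ± 0.43 and −0.92 ± 0.28, and Mrps6 log2 −0.05 ± 0.41.
The T and B cell markers were far higher in footprint libraries than in cold input, as given above. The part of such differences between the assays in this interaction and in the ratios below was not tested. Within a genotype, footprints over input are given without a test, since the deposited values also imply other gene lengths for footprints than for input. The 78 genes had a median log2 of 1.79 in the libraries labelled cKO and 1.91 in WT cold, against 0.67 and 0.63 over all genes. Mrps14 stood highest in both (6.09 and 5.53), followed by Mrps16 (5.18 and 5.43) and Mrpl17 (5.07 and 5.04), and Mrpl42 stood lowest in the libraries labelled cKO (−0.13) and Mrps10 in WT cold (−0.23). Mrps14 had 296 and 214 footprint RPKM against 2.29 and 3.17 input RPKM in the libraries labelled cKO, and 242 and 278 against 4.77 and 4.49 in WT cold. The implied input length of Mrpl17 was 7301 bases, the longest of the 78, where the median was 1302, and the implied length ratio of footprints to input was log2 −2.83 relative to the median gene for Mrpl17 and −2.01 for Mrps14. Across the 78 genes footprints over input and that length ratio had Spearman's rho of −0.555 in the libraries labelled cKO and −0.596 in WT cold, against −0.244 and −0.240 over all genes, as a description, since both contain the lengths.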

How the data were processed

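The deposited matrix held RPKM values, computed by the authors, for 17883 genes in 16 libraries. Reads were aligned with HISAT2 to mm10, per the submitters' processing notes; the counting tool, its strand setting, the annotation and any filters are not given in the sources used here. RPKM values do not depend on depth but lose precision at low counts. The steps between low values gave back whole reads for 100% of genes (within 0.001 reads or a relative 3e-08), from which depth was taken. With few libraries such a fit is easily met, so in footprints this share is no check of the recovered reads. Groups followed the labels.

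Differences were tested with limma 3.58.1 in R 4.3.3 on log2(RPKM + 1), so fold changes of low genes are understated, over genes with at least 1 RPKM in 2 libraries of the fit, with Benjamini-Hochberg adjustment over all of them and a threshold of 0.05. Fits held the 6 input libraries, the 12 input and m6A libraries, or the 8 cold input and footprint libraries, with 3, 6 and 4 residual degrees of freedom. Data were simulated for the cold input, labelled cKO m6A interaction and footprint comparisons, with 12156, 12399 and 12251 genes. Of 200 genes changed by log2 2, 197, 181 and 186 were recovered with the right sign, with 11, 6 and 17 false calls. The largest differences among the 78 genes there were smaller, at log2 1.22 (Mrpl20), −1.61 (Mrpl46) and −1.86 (Mrps36). Recovery at such sizes was not tested, so these counts do not show how many changes of those sizes would be missed. Alternatives were median-ratio scaling, a pseudocount of 0.1, no filter, a replicate block and leaving out each library. Libraries with 1 number deviated together within a condition (Pearson's r = 0.305 to 0.656 over 7 pairs of groups) and not across conditions (−0.0994 to 0.0779 over 21). The main fits held group means without pairing. In the replicate block, same-numbered libraries of 1 condition were taken as pairs for m6A or footprints over input. This pairing rests on the values, since no label states it. For differences within input or within footprints, the block was the replicate number across conditions.

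The genes and lists were chosen with earlier results of these data known. In each comparison the text names up to 6 called genes per direction with the largest difference (3 where none passed), the 5 most abundant and a set fixed by role; Ogdh, Dlst, Slc5a3, Twnk, Gga3, Mif4gd, the printed promoters and other examples were chosen after their values were seen. Promoters came from RefSeq (GRCm38.p6) by symbol. Tables and figures used Python 3.11.15, numpy 2.4.6, pandas 2.3.3 and matplotlib 3.10.9.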

Additional observations from a re-analysis of the deposited data

How the results depend on the processing

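Of 2374 alternative values for 172 results of 49 genes named by the rule, not of every gene called, 2144 kept their direction and side of the threshold, 77 changed sign while past the threshold under neither setting, 129 lost a call, 21 gained one and 3 reversed. Those 3 were cold differences under median-ratio scaling, Mrpl24 at log2 0.17, Mrps5 at 0.59 and Mrps18a at 0.59. Median-ratio scaling gave 57 calls for cold in input, 17 for labelled cKO in input (2 higher, 15 lower) and 31 for m6A over input in the libraries labelled cKO, and a median of the 78 relative to all genes of −0.15 for m6A over input in WT cold. Without the filter there were 7 calls for labelled cKO in input and 4 in footprints, and relative medians of 0.60 (cold), −0.14 (labelled cKO), and −0.58, −0.32 and −0.48 for m6A over input in the libraries labelled cKO, WT cold and WT RT. A pseudocount of 0.1 gave 4 footprint calls and a relative median of 1.03 for cold. With the replicate block, 9 genes passed for the labelled cKO change of m6A over input, and calls for m6A over input were 58, 51 and 55 in the libraries labelled cKO, WT cold and WT RT; other counts stayed within 1.5 times.

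Leaving out 1 library gave 8 to 25 calls for cold in input, with 9 and 8 without WT RT input replicate 1 and 2. For labelled cKO in input it gave 5 to 13 calls: 5 without either WT RT input, 6 without WT cold replicate 2, 6 without labelled cKO replicate 1, and 7 (3 higher, 4 lower) without labelled cKO replicate 2; relative medians ran from −0.44 to −0.15. For footprints it gave 0 to 6 calls, 4 without any 1 input library and 0 without WT cold footprint replicate 2 or labelled cKO footprint replicate 1, and relative medians of −0.62 to −0.16. For m6A over input, WT RT had 30 to 50 calls, with 30 without WT RT m6A replicate 2, and the relative median labelled cKO ran from −0.56 to −0.24. Relative medians of the interactions ran from −0.043 to 0.051 (m6A, cold), −0.26 to −0.0058 (m6A, labelled cKO) and −0.20 to 0.15 (footprints). The causes were not tested. Where leaving out a library leaves 1 in a group, that library is assumed to vary like the other groups. Depth was lowest in footprints, where a gene had as few as 2 reads in a library.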
